A study of Mus musculus with 4 samples.

Results

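Transcripts of the nuclear genes of oxidative phosphorylation were counted in single leptin receptor reporter cells of the mouse hypothalamus. The set holds 84 of the 35998 genes in the count tables. Its members are the protein-coding genes outside the mitochondrial genome whose symbol starts with Ndufa, Ndufb, Ndufc, Ndufs or Ndufv and a digit, with Uqcr, with Cox and a digit from 4 to 8, or with Atp5, together with Sdha, Sdhb, Sdhc and Sdhd. Of the 84 genes, 35 belong to complex I (NADH dehydrogenase), 4 to complex II (succinate dehydrogenase), 8 to complex III (cytochrome bc1 complex), 20 to complex IV (cytochrome c oxidase, with Ndufa4 and Ndufa4l2 placed here) and 17 to complex V (ATP synthase). All 84 were detected. They gave 244808 transcripts, or 1.24% of the transcripts of nuclear genes in the cells kept.

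Complexes I to IV pass electrons from NADH and succinate to oxygen, and all of them except complex II pump protons across the inner mitochondrial membrane. Complex V lets the protons flow back and makes ATP. Each complex except complex II also contains subunits encoded by mitochondrial DNA, so the nuclear genes supply only a part of it. Several small subunits of complex IV exist as pairs of genes, of which a common form is used in most tissues and a second form in heart and skeletal muscle (Cox6a2, Cox7a1, Cox8b), lung (Cox4i2) or testis (Cox6b2, Cox7b2). Neurons are known to depend strongly on oxidative phosphorylation, while astrocytes and endothelial cells are known for more glycolysis.

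All mice were C57BL/6 and carried Lepr-cre and Rosa-LSL-tdTomato. In this cross, Cre made under the control of the leptin receptor gene switches on the red fluorescent protein tdTomato for good. A sorted cell is therefore taken as one in which that gene was active at some time. The purity of the sort was not tested. Fluorescent cells were sorted singly into plates of 384 wells. Fed plates 1, 2 and 3 came from fed mice and the fasted plate from mice kept without food for 24 h. The sources used here do not state the age or sex of the mice or how many gave each plate. The p-values below therefore measure only the spread between these plates, which may be technical, and with 1 fasted plate the feeding state and the plate cannot be told apart.

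Of 1536 wells, 1279 were kept, 356, 322 and 331 on the fed plates in order and 270 after fasting, with a median of 7750 to 13507 transcripts of nuclear genes per cell. Lepr itself had a transcript in 22.7 to 25.4% of the kept cells of each plate, among them 54.3% of AgRP-like neurons, 3.81% of tanycyte-like and 3.57% of astrocyte-like cells. Clusters made without any member gene gave 393 neurons (124, 114, 106 and 49 by plate) and 886 other cells. The neurons comprised 199 AgRP-like neurons and 194 others. Tanycyte-like cells (236), vascular leptomeningeal (VLMC)-like cells (101), endothelial-like cells (125) and astrocyte-like cells (112) were the largest of the other classes, and 104 cells stayed unnamed. The AgRP-like neurons lay mostly in 3 different clusters, those of fed plate 1 in cluster 5, those of fed plates 2 and 3 in cluster 4 and the fasted ones in cluster 14, and 57 of the 72 endothelial-like cells of fed plate 1 formed a cluster led by Lcn2. Cells with Xist but no Y-linked transcript made up 4.49, 28.3 and 27.2% of fed plates 1, 2 and 3, against 41.5% after fasting. Cells with the reverse made up 77.8, 28.0 and 31.1% against 3.70%. The remaining cells, most of those on the fasted plate, had both or neither and were not assigned. Among assigned cells the fasted plate also differed in sex.

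The members that the comparisons turn on are spread over the genome, and the 84 genes lie on 19 chromosomes. To show what their promoters look like, the 250 bases before the RefSeq start site (GRCm38.p6) are printed for 4 members whose window overlaps no annotated exon. Ndufb8 (chr19:44555443-44555692, minus strand) and Atp5g3 (chr2:73911327-73911576, minus strand) are shown because they were higher in neurons, Cox7a2l (chr17:83514334-83514583, minus strand) because it differed between AgRP-like and other neurons and among vascular and glial classes, and Ndufc2 (chr7:97399753-97400002, plus strand) because it was high in tanycyte-like cells. The Cox7a2l window lies inside the GENCODE gene, whose longest transcript starts farther upstream. The sequences run 5′ to 3′ on the gene's strand, and capitals mark the only match in them to the motifs of NRF1, ETS factors, YY1 or estrogen-related receptors (ERR).
Ndufb8: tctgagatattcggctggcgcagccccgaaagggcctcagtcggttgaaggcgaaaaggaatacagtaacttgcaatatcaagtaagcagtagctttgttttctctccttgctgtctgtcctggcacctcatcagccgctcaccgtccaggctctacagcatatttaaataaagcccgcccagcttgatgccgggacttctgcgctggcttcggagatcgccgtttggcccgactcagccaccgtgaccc
Atp5g3: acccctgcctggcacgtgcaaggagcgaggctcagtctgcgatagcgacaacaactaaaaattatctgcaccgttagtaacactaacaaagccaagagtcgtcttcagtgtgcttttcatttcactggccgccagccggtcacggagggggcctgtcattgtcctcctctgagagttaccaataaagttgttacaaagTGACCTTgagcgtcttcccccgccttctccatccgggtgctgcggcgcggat
Cox7a2l: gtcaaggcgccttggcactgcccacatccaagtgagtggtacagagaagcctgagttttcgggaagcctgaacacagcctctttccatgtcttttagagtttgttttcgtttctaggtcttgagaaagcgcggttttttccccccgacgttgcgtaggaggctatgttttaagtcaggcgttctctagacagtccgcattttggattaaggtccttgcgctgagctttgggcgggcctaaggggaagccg
Ndufc2: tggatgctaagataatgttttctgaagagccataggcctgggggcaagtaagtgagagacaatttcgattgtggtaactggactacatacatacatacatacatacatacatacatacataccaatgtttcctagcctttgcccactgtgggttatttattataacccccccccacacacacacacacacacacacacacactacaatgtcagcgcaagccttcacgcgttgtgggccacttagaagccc

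NRF1, the ETS factor GABP, YY1 and the ERR receptors are known regulators of respiratory chain genes, so these motifs were searched on both strands in the 66 of 83 member symbols that have a RefSeq promoter entry. The NRF1 motif, GCGC and TGCGC with any base between them, was found in 12 of 66 windows (18.2%), against 5.99% of 14917 windows of protein-coding genes. It occurred at 3 places in Sdha, the catalytic flavoprotein of complex II, and at 3 places in Ndufb4 of complex I. Cox6a1, the common form of subunit 6A of complex IV, held it at 162 and 117 bases before the start. The ETS motif CCGGAAG was found in 11 windows (16.7% against 10.2%), the ERR motif AAGGTCA in 5 (7.58% against 3.39%) and the YY1 motif AAGATGGC in 0 (against 1.60%). In Atp5g3 the ERR motif, in reverse as TGACCTT, lies 52 bases before the start. At least 1 of the 4 motifs was present in 22 member windows (33.3%), against 19.5% of protein-coding genes. The Sp1 motif GGGCGG was found in 34.8% of member windows and 48.0% of protein-coding genes, and the letters TATAAA in 9.09% and 10.4%. No motif searched contains the letters of another. The mean GC content was 55.6% in member windows and 57.2% in those of protein-coding genes, and a match is only a match of letters.

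A few genes carried much of the signal. The 10 members with the most transcripts gave 30.6% of all member transcripts. They were led by Atp5a1 (11935 transcripts, unique molecular identifiers or UMIs, in kept cells) and Atp5b (11919), the alpha and beta chains that form the catalytic head of ATP synthase, and by Atp5g3 (9523), which encodes its membrane ring. At the other end, 13 members stayed under 1000 UMIs. Among them were the tissue-restricted forms Cox8c (1 UMI), Cox8b (5), Cox4i2 (11), Cox7b2 (43), Cox7a1 (52), Cox6b2 (159), Ndufa4l2 (226) and Cox6a2 (443). Counts of different genes were not divided by length, because CEL-seq2 tags each transcript at its 3′ end. In 29 members the last 500 bases share a run of 50 bases with a transcript of another gene, and in Atp5l this reaches 75.2% of the stretch. Atp5o is listed as 2 overlapping genes on chromosome 16 (91925214-91931687 and 91684398-91926982, both minus strand) that share most of this stretch, so the split of reads between them is uncertain.

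Neurons gave a larger share of their transcripts to the set than other cells did. Summed over the 84 genes, the level in neurons was 163, 145 and 142 UMIs per 10000 nuclear UMIs on fed plates 1, 2 and 3, in this order throughout, and 121 after fasting. In the other cells it was 102, 96.1, 101 and 80.9. Neurons lay above the pooled other cells on each of the 4 plates, and even their lowest value, from the fasted plate, was above the highest pooled value. Not every class within the other cells lay lower. The few smooth muscle-like cells stood at 167 on fed plate 1 (2 cells), 149 on fed plate 3 (7 cells) and 92.4 on the fasted plate (1 cell).

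AgRP-like neurons, the arcuate neurons that release Agrp and Npy and drive feeding, stood at 163, 150 and 149 when fed and 124 when fasted. The remaining neurons stood at 164, 137 and 139 and at 114. The fed means were 154 ± 7.81 and 147 ± 14.7 (SD, n = 3). Plate by plate, AgRP-like neurons lay slightly below the other neurons on fed plate 1 and above them on each of the remaining plates, and this difference in the sum was not tested. Tanycyte-like cells, a kind of ependymal cell at the base of the ventricle that reaches into the arcuate nucleus, gave 115, 106 and 111 and 83.3 on the fasted plate. VLMC-like cells, fibroblast-like cells of the brain's coverings, gave 114, 110 and 102 and 75.2, which overlaps the tanycyte-like range. Endothelial-like cells were lower at 99.8, 94.3 and 90.9 when fed and 73.7 when fasted. Astrocyte-like cells gave 77.7 and 92.7 on fed plates 2 and 3, the only fed plates with at least 10 of them, and 80.4 when fasted. Classes with 10 or more cells on only 1 plate ranged from 53.9 in microglia-like cells of the fasted plate to 118 in pericyte-like cells of fed plate 3.

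The sums of all 5 complexes were larger in neurons. On the fed plates complex I genes gave on average 53.3 UMIs per 10000 in neurons and 35.5 in other cells, complex II genes 5.59 and 3.85, complex III genes 13.7 and 9.39, complex IV genes 33.6 and 22.5 and complex V genes 43.9 and 28.6. Neurons had more UMIs per cell (median 28284 against 6932.5). Among cells of like depth, with 10000 to 20000 UMIs, the levels were 165, 152 and 152 in neurons and 101, 90.7 and 96.9 in other cells of fed plates 1, 2 and 3. The 13 subunits encoded by mitochondrial DNA did not follow this order. Their summed level was 476, 314 and 287 per 10000 nuclear UMIs in fed neurons and 444, 404 and 468 in the other fed cells, higher in neurons on fed plate 1 and lower on fed plates 2 and 3.

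The gene-wise comparison of neurons with the other cells of the same plates showed the same for most members singly. Of 81 members with enough counts to test, 63 were higher and 4 lower in neurons (edgeR's quasi-likelihood test on UMIs summed per plate with plate as block, Benjamini-Hochberg adjusted p under 0.05). Of all 16081 genes tested, 58.5% were called either way, 27.6% of them higher and 30.9% lower as shares of all genes. The median log2 difference of the members was 0.67, and that of all genes was -0.01. On each of the 4 plates separately, 68 of 81 members were higher in neurons, as were 33.4% of all genes. Levels of single genes below are counts per 1000000 nuclear UMIs after TMM scaling (CPM), or, where so named, plain CPM without that scaling. Among genes of at least 50 CPM the median was 0.70 for members and 0.24 for other genes, and among genes with transcripts under 1000 bases 0.60 and 0.14.

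**Figure D1:**
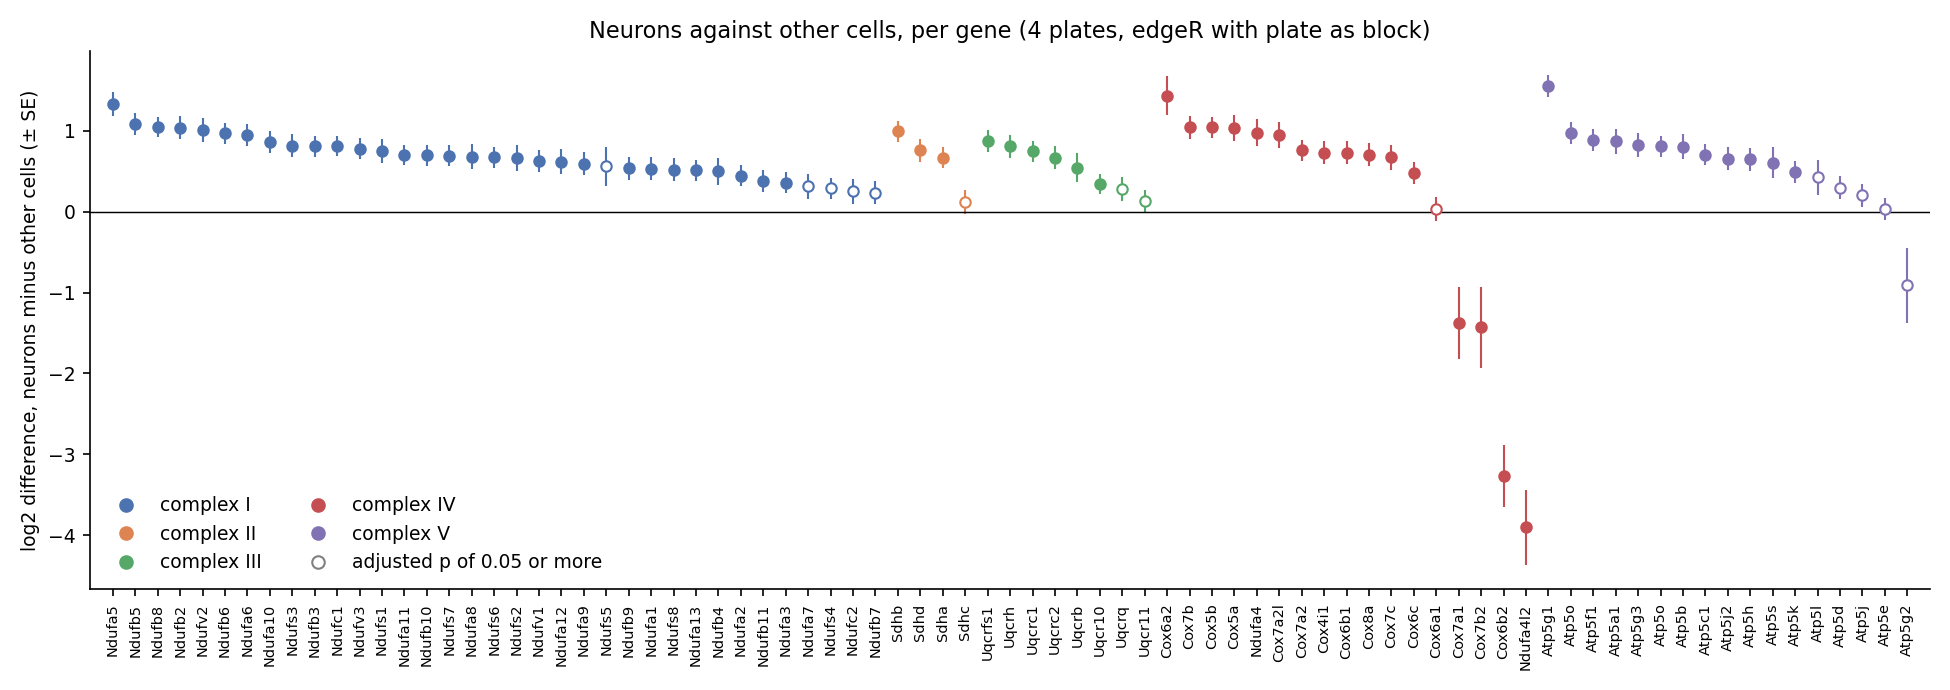
Log2 difference of neurons minus other cells for each member tested (points, with SE as bars), coloured by complex; open points have an adjusted p of 0.05 or more. Most genes lie between 0 and 1.55, and Ndufa4l2 (-3.90), Cox6b2 (-3.27), Cox7b2 (-1.43) and Cox7a1 (-1.38) lie below 0.

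Complex I had 30 of its 35 genes higher in neurons, complex II 3 of 4, complex III 6 of 8, complex IV 12 of 17 tested and complex V 12 of 17. Atp5g1 (ENSMUSG00000006057, chr11:96068852-96075670, minus strand) is 1 of 3 genes for the ring subunit c of ATP synthase. It stood at 99.4, 97.5 and 109 CPM in fed neurons and 127 in fasted ones, against 32.9, 29.8, 41.3 and 44.7 CPM in other cells. The groups did not overlap, and the log2 difference was 1.55 (SE 0.14, adjusted p = 3.74e-05). Its paralogue Atp5g3, which makes the same mature protein, differed by 0.82, and Atp5g2 by -0.91 with an adjusted p of 0.12 on only 89 UMIs.

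Ndufa5, a subunit of the matrix arm of complex I, had the largest difference in complex I. It measured 119, 125, 117 and 104 CPM in neurons and 53.8, 42.9, 40.7 and 46.7 CPM in other cells (log2 difference 1.33, adjusted p = 0.000113). Ndufb5 (1.08), Ndufb8 (1.05) and Ndufb2 (1.04), which sit in the membrane arm, and Ndufv2 (1.01), an iron-sulfur subunit of the NADH-binding module, were also higher by about as much. In complex IV, Cox7b (1.04), Cox5b (1.04) and Cox5a (1.03) led the common subunits. The catalytic core of complex II was higher in both its parts, with Sdha at 0.67 and Sdhb at 0.99. Its membrane anchor was split: Sdhd was higher (0.76), while Sdhc, at 125, 123, 116 and 90.1 CPM in neurons and 144, 107, 115 and 64.3 CPM in other cells, overlapped between the groups (0.12, adjusted p = 0.51). In complex III the Rieske iron-sulfur protein Uqcrfs1 had the largest difference (0.87), and Uqcrq and Uqcr11 did not pass the test.

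Beside Sdhc, the members closest to equality were Cox6a1 (0.03) and Atp5e (0.03), the epsilon chain of ATP synthase. Cox6a1 measured 345, 327, 305 and 240 CPM in neurons and 409, 284, 288 and 228 CPM in other cells, and its difference changed sign without fed plate 2, without fed plate 3 and without plate as block. Its paralogue Cox6a2 was higher in neurons at 27.0, 35.7, 44.1 and 14.8 CPM against 7.12, 13.1, 24.1 and 4.39 CPM (1.43, adjusted p = 0.00118). The groups overlap across plates, since other cells of fed plate 3 exceed neurons of the fasted plate, but neurons were higher within each plate. The excess lay in neurons other than AgRP-like ones, at 58.7 plain CPM with the plates pooled. AgRP-like neurons stood at 5.81 plain CPM, below the 11.2 of the non-neuronal cells. Without plate as block the adjusted p of Cox6a2 was 0.055.

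The neighbouring gene lists were chosen with earlier results of these data known. All 8 tested respiratory chain genes that the symbol rule leaves out were higher in neurons, among them Atpif1, the inhibitor of ATP hydrolysis by complex V (1.41), and Cycs, cytochrome c (1.30). In the tricarboxylic acid cycle, which feeds the chain, 11 of 16 genes were higher, led by Idh3a (1.48), and 1 was lower. Of 76 mitochondrial ribosomal protein genes, whose products translate the mitochondrially encoded subunits, 45 were higher and 1 lower. Of 45 assembly factors of the complexes, 18 were higher and 2 lower, and most were called in neither direction. Of 9 carriers, 7 were higher and 1 lower, with Slc25a14 at 1.49. The 14 regulators of mitochondrial biogenesis had a median of -0.15, with Ppargc1b higher (1.70) and 3 genes lower, among them Polg, the mitochondrial DNA polymerase (-1.37), and Gabpa, the DNA-binding part of GABP (-0.98). Against 27.6% of all genes higher and 30.9% lower, the called share either way was smaller in the assembly factors and the regulators than the 58.5% of all genes.

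The 4 members lower in neurons are all paralogues of more common complex IV subunits. Ndufa4l2 (ENSMUSG00000040280, chr10:127514967-127517154, plus strand), the paralogue of Ndufa4 known to be induced by low oxygen, measured 1.71, 0.668, 1.34 and 3.11 CPM in neurons and 37.8, 21.1, 33.9 and 13.6 CPM in other cells (log2 difference -3.90, adjusted p = 0.000173). In pericyte-like cells, the contractile cells of capillaries, it reached 705 plain CPM, with 70 UMIs in 23 of 27 cells (85.2%, exact 95% interval 66.3 to 95.8). By plate it stood there at 813, 1536 and 695 when fed and 480 when fasted, from 4 to 10 cells a plate. Smooth muscle-like cells followed at 292 plain CPM in 6 of 10 cells with a UMI. The unnamed cells held 92 of its 226 UMIs, more than any named class, at 81.2 plain CPM in 24 of 104 cells. Neurons, with a median depth of 28284 UMIs per cell against 3342 in pericyte-like cells, had an Ndufa4l2 UMI in 17 of 393 (4.33%). Tanycyte-like cells stood at 1.64 plain CPM, and 0 of 51 oligodendrocyte-like cells had a UMI, which at 3 counts of the total allows a share of cells with a UMI of up to 5.88%. After thinning each cell to 1000 UMIs, 14 of 27 pericyte-like cells and 1 of 393 neurons had an Ndufa4l2 UMI.

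Cox6b2 (chr7:4751792-4753094, minus strand), the form of subunit 6B known from testis, was the second member low in neurons, at 2.05, 1.00, 3.34 and 1.16 CPM against 12.5, 24.7, 25.2 and 12.4 CPM in other cells (-3.27, adjusted p = 0.000154). Of its 159 UMIs, VLMC-like cells held 34 and tanycyte-like cells 68. The level was 46.4, 59.0, 78.2 and 27.8 plain CPM by plate in VLMC-like cells and 54.6, 34.1, 33.0 and 31.8 in tanycyte-like cells. OPC-like cells, which carry markers of oligodendrocyte precursors, followed with 10 UMIs at 27.7 plain CPM, while neurons held 22 UMIs at 1.84 plain CPM. Endothelial-like cells held 3 UMIs in all, or 2.12 plain CPM. Its common counterpart Cox6b1 was higher in neurons (0.73). Cox7b2 (-1.43, adjusted p = 0.037) and Cox7a1 (-1.38, adjusted p = 0.0269) rest on 43 and 52 UMIs, of which neurons held 15 and 19, and both lost the call with DESeq2 and without the filter on low counts. Cox7b2 also lost it without fed plate 1, without fed plate 3 and without the Lcn2-led cluster. Cox4i2, the lung form of subunit 4, had 11 UMIs, 4 in tanycyte-like, 4 in unnamed, 2 in pericyte-like and 1 in endothelial-like cells. It was found in 0 of 393 neurons, which by the same rule allows a share of neurons with a UMI of up to 0.763%.

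**Figure D2:**
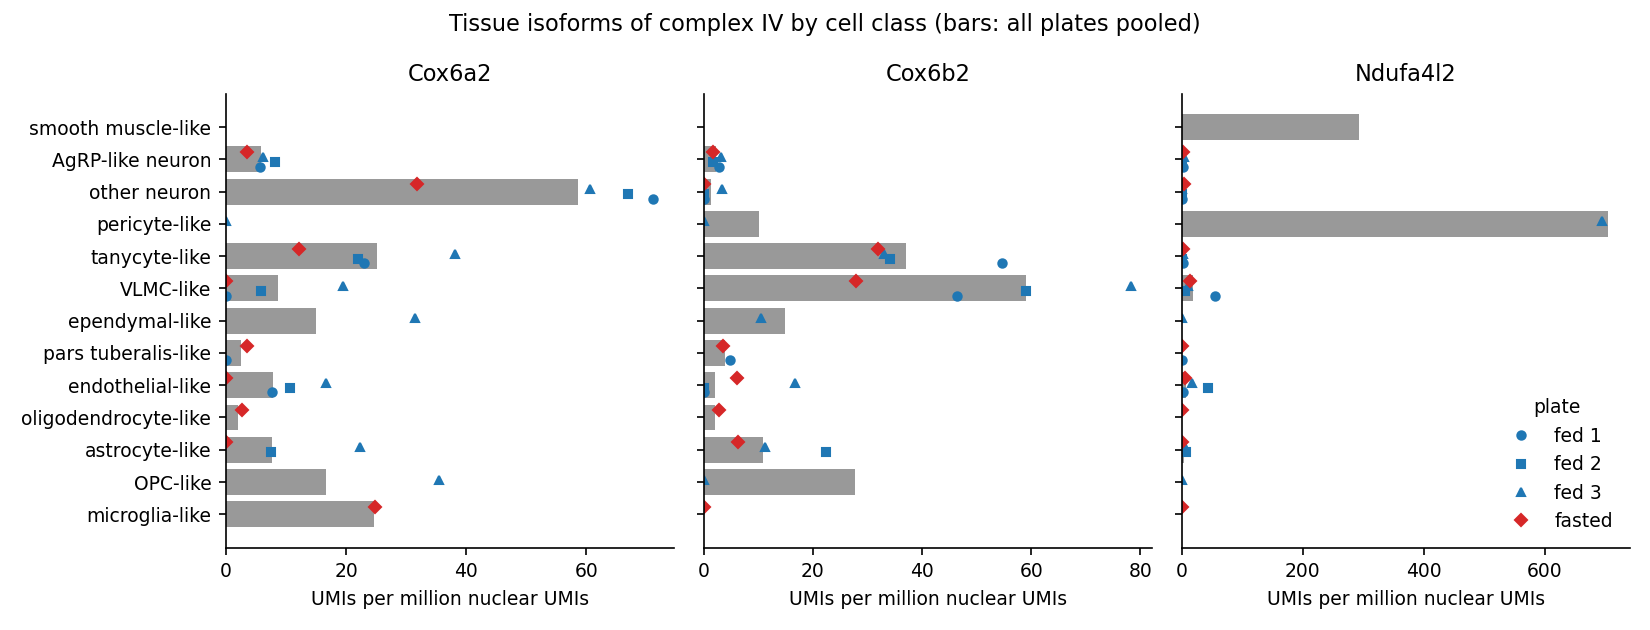
Plain CPM of Cox6a2, Cox6b2 and Ndufa4l2 by cell class; bars pool the 4 plates and points are plates with at least 10 cells of the class. Cox6a2 is highest in neurons other than AgRP-like ones (58.7), Cox6b2 in VLMC-like cells (59.1) and Ndufa4l2 in pericyte-like cells (705).

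Within neurons, AgRP-like cells and the rest differed little over the set, with a clear exception. Of 76 members tested, 5 were higher and 1 lower in AgRP-like neurons, where 14.8% of 12885 genes were called either way (6.36% higher and 8.44% lower). The median log2 difference was 0.09 for members and 0.00 for all genes, and 26 of 76 members were higher on each of the 4 plates, against 16% of all genes.

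The exception was Cox6a2 (ENSMUSG00000030785, chr7:128205435-128206387, minus strand), the form of subunit 6A known from heart and skeletal muscle. It measured 5.79, 8.37 and 6.27 CPM in fed AgRP-like neurons and 3.63 CPM in fasted ones. In the other neurons it measured 71.1, 67.2 and 60.2 CPM when fed and 32.0 CPM when fasted. The groups were far apart on every plate, with a log2 difference of -3.25 (SE 0.22, adjusted p = 3.22e-08) that kept its call in all 11 alternative settings. A Cox6a2 UMI was found in 88 of 194 other neurons (45.4%, exact 95% interval 38.2 to 52.6) and 33 of 199 AgRP-like neurons (16.6%, 11.7 to 22.5), at median depths of 26249 and 29925 UMIs. After thinning to 1000 UMIs per cell the shares were 6.70 and 0.503%. In oligodendrocyte-like cells, 1 of 51 cells (1.96%) had a Cox6a2 UMI at a median depth of 9016. Within the other neurons the cluster led by Pomc, the precursor of melanocortins that curb feeding, reached 81.6 plain CPM, and the cluster led by Htr2c and Slc17a6 reached 21.0. Tanycyte-like cells, at 25.1 plain CPM, lay nearer to that second cluster than to AgRP-like neurons. Cox6a1 differed slightly in the reverse direction and was not called (0.21, adjusted p of 0.16). It stood at 344, 336, 337 and 227 plain CPM in AgRP-like neurons and 293, 291, 283 and 226 in other neurons.

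Cox7a2l, a relative of subunit 7A known to join complexes III and IV into supercomplexes, was higher in AgRP-like neurons. It measured 290, 267, 254 and 253 CPM there and 223, 165, 161 and 164 CPM in other neurons, with every AgRP-like value above every other value (log2 difference 0.59, SE 0.10, adjusted p = 0.000557). This call also held in all 11 settings. Ndufv3, an accessory subunit of the NADH-binding module, was higher by 0.50 (adjusted p = 0.00646), at 222, 229, 239 and 143 CPM against 188, 149, 136 and 117 CPM, and lost its call without fed plate 2, without fed plate 3 and without the block. Atp5g1 (0.39), Ndufc1 (0.34) and Atp5a1 (0.28) were called at adjusted p of 0.0324, 0.0432 and 0.0299. Ndufc1 and Atp5a1 were no longer called without any 1 of the fed plates, nor Atp5g1 without fed plate 2 or 3, and DESeq2 called none of these 3. Among the carriers, Ucp2, the uncoupling protein known from AgRP neurons, was higher (log2 difference 1.07, adjusted p = 5.32e-06). It measured 375, 331, 357 and 313 CPM, against 157, 168, 140 and 194 CPM in other neurons. Slc25a5 was also higher (0.62). Of 14 biogenesis regulators 1 was called, Ppargc1a, which was lower (-0.96, adjusted p = 0.00649). In the tricarboxylic acid cycle 1 of 16 genes was higher (Suclg2), and of 75 mitochondrial ribosomal protein genes 1 was higher (Mrpl24). None of 44 assembly factors was called.

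Among the non-neuronal classes the summed level differed, with fed means of 111 in tanycyte-like, 109 in VLMC-like and 85.2 in astrocyte-like cells, the last from fed plates 2 and 3 alone (UMIs per 10000, plain totals). After TMM scaling, which sets each class against the bulk of its own genes, the member medians lay near 0. In a fit of 5 classes over 8818 genes, 73 members were tested against the mean of the remaining classes. Their median differences were 0.00 in tanycyte-like, 0.07 in VLMC-like, -0.07 in endothelial-like, 0.06 in astrocyte-like and 0.00 in pars tuberalis-like cells, which carry markers of the gland tissue around the pituitary stalk. The members called were 8 in tanycyte-like, 6 in VLMC-like, 12 in endothelial-like, 6 in astrocyte-like and 1 in pars tuberalis-like cells. Each is a smaller share than that of all genes, of which 30.6, 21.8, 42.2, 29.6 and 24.5% were called in these classes, in that order.

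Ndufc2 (ENSMUSG00000030647, chr7:97400003-97407802, plus strand), a subunit of the membrane arm of complex I, was higher in tanycyte-like cells. It measured 512, 501, 456 and 516 CPM there, and between 109 and 339 CPM in the other 4 classes on any plate. The log2 difference was 1.25 (SE 0.17, adjusted p = 4.16e-08), and it was the only call of the 8 in tanycyte-like cells that held in all 11 alternative settings. Ndufc1, which pairs with Ndufc2 in the complex, was higher by 0.80 (adjusted p = 0.00944) but lost its call without fed plate 2. Cox6b2 was higher by 1.79 in tanycyte-like cells and by 2.62 in VLMC-like cells. The first call was lost without fed plate 1 (1.21, adjusted p = 0.079), the second held in all settings (adjusted p = 0.000147 as fitted). VLMC-like cells were also higher in Ndufa13, a complex I subunit also known as GRIM-19, at 211, 283, 193 and 265 CPM (0.86, adjusted p = 0.00392). In tanycyte-like cells Ndufa13 measured 152, 167, 206 and 112 CPM.

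Endothelial-like cells were higher in Cox7a2l, at 249, 146, 202 and 347 CPM (1.32, adjusted p = 3.83e-06), in Ndufa8, at 221, 123, 184 and 177 CPM (1.15, adjusted p = 3.83e-05), and in Ndufa7 (0.67). They were lower in Cox8a, the common form of subunit 8, at 297, 269, 210 and 177 CPM (-0.72, adjusted p = 0.00302). These 4 calls held in all settings, the fit without the Lcn2-led cluster included. Cox6b2 was lower by 2.67 on the log2 scale but was not called without fed plate 1 (-1.16, adjusted p = 0.39) or without that cluster. Astrocyte-like cells were called opposite to endothelial-like cells in 3 subunits. Each of these classes is part of the mean the other was set against, so the opposite calls are not independent. The classes were not tested against each other. Cox7a2l was lower there, at 52.1, 53.2 and 26.8 CPM on fed plates 2 and 3 and the fasted plate (-1.79, adjusted p = 7.72e-05). Ndufs1, the largest subunit of complex I, was higher at 200, 193 and 195 CPM (1.17, adjusted p = 0.000463), against 82.6, 89.7, 105 and 40.8 CPM in endothelial-like cells. Both astrocyte-like calls held in all settings. Ndufa12, an accessory subunit of complex I, was also higher, at 209, 332 and 214 CPM (0.92, adjusted p = 0.00372), against 142, 101, 43.8 and 88.4 CPM in endothelial-like cells (-0.85, adjusted p = 0.00542), and each of these calls was lost in 1 setting.

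On the fasted plate the set took a smaller share of transcripts, while few single genes passed the test. The summed level lay below each fed plate in neurons (121 against 142 to 163), in other cells (80.9 against 96.1 to 102), and in tanycyte-like, VLMC-like and endothelial-like cells. In astrocyte-like cells it lay between the 2 fed plates. The other cells also differed in make-up. Astrocyte-like, oligodendrocyte-like and microglia-like cells numbered 44, 35 and 16 of 221 on the fasted plate. On fed plate 1 they numbered 3, 2 and 0 of 232. Fed plate 2 held 28, 8 and 4 of 208, and fed plate 3 held 37, 6 and 5 of 225. The part of this mix in the lower level of the other cells was not tested. Among AgRP-like neurons 77 members were tested, of which 3 were lower and 0 higher, where 4.79% of 13161 genes were called either way and 1.72% lower. The fasted cells lie mostly in cluster 14, led by Vgf and Agrp, and the fed cells in clusters 5 and 4. The median log2 difference, fasted minus fed, was -0.30 for members and -0.02 for all genes. The fasted value lay below every fed plate for 55 of 77 members, as it did for 31.3% of all genes, and above every fed plate for 7, against 31.4% of all genes.

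**Figure D3:**
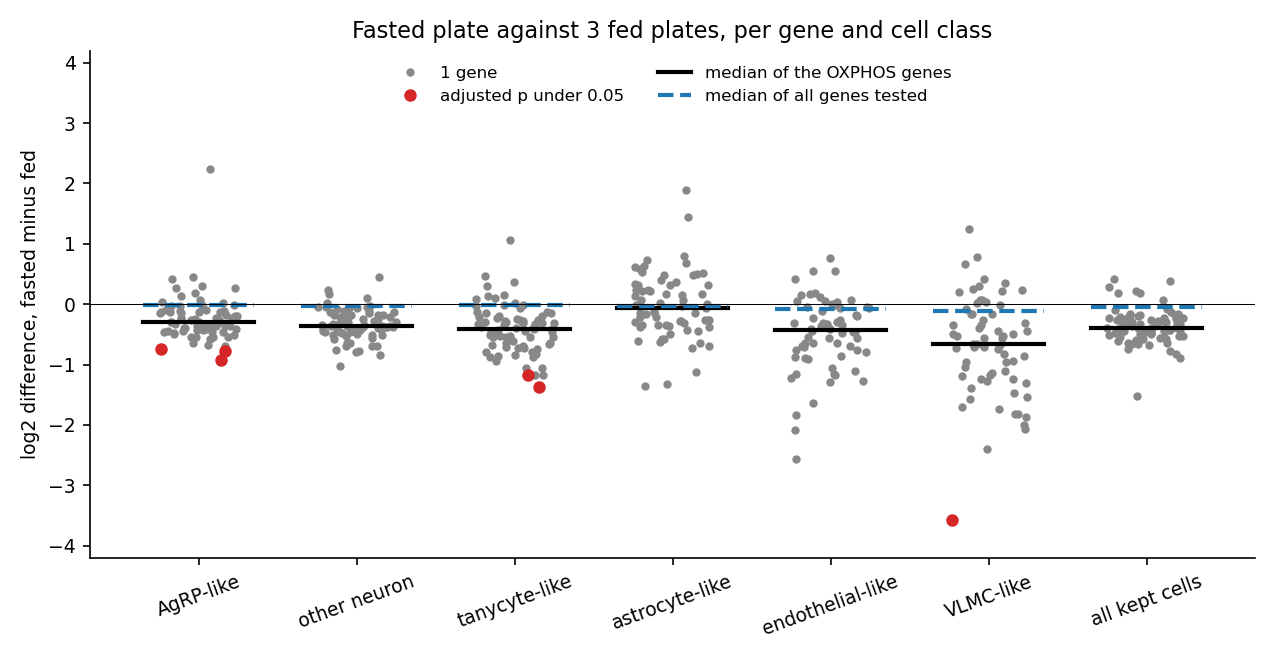
Log2 difference, fasted minus fed, of each member (points) by cell class; red points have an adjusted p under 0.05, the black line is the median of the members and the dashed blue line that of all genes. The member median is -0.30 in AgRP-like neurons, -0.41 in tanycyte-like cells and -0.06 in astrocyte-like cells.

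The 3 genes called in AgRP-like neurons were Ndufb11, Atp5e and Ndufa7. Ndufb11 (chrX:20615326-20617619, minus strand), an X-linked subunit of the membrane arm of complex I, measured 191, 194 and 199 CPM when fed and 102 CPM when fasted (-0.92, adjusted p = 0.0107). Atp5e (chr2:174461072-174464105, minus strand) measured 145, 141 and 152 CPM against 85.2 CPM (-0.77, adjusted p = 0.0384). Ndufa7 (chr17:33824572-33838317, plus strand), of the matrix arm, measured 219, 210 and 219 CPM against 129 CPM (-0.74, adjusted p = 0.0428). The fed plates lay close together for all 3 genes. None of the 3 was called without fed plate 2, and 10 members were called without fed plate 1. Atp5e and Ndufa7 also lost the call with DESeq2 (adjusted p of 0.18 and 0.13) and without the filter on low counts (0.081 and 0.094).

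Further members had differences nearly as large that did not pass the test. Ndufa3 measured 169, 170 and 170 CPM when fed and 105 CPM when fasted (-0.69, adjusted p = 0.063), and Ndufv3 220, 226 and 235 CPM against 141 CPM (-0.68, adjusted p = 0.064). Cox8a measured 547, 537 and 526 CPM against 367 CPM (-0.55, adjusted p = 0.16). Other members did not lie clearly below the fed plates in AgRP-like neurons. Atp5g1 measured 99.3, 106 and 134 CPM when fed and 134 CPM when fasted, Sdhb 169, 133 and 153 CPM against 156 CPM, and Cox7a2l 286, 263 and 249 CPM against 249 CPM. The 2 most abundant members, Atp5a1 (-0.24) and Atp5b (-0.15), had small differences that did not pass the test. By complex the medians were -0.33 for complex I, -0.09 for complex II, -0.33 for complex III, -0.34 for complex IV and -0.22 for complex V.

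In tanycyte-like cells 2 of 76 members were lower and 0 higher, against 3.09% of 10372 genes called either way and 1.07% lower. Sdhc (chr1:171127165-171150603, minus strand) measured 159, 113 and 151 CPM on the fed plates and 54.2 CPM, or 21 UMIs, on the fasted plate (-1.37, adjusted p = 0.0177). Atp5e measured 201, 220 and 160 CPM against 85.2 CPM (-1.17, adjusted p = 0.0263). DESeq2 called neither gene. The call of Sdhc was lost without fed plate 3 and that of Atp5e without fed plate 2 and without the filter on low counts. Both were lost when only Xist-positive cells without Y-linked transcripts were used. The member median was -0.41, against -0.01 for all genes, and 52 of 76 members lay below every fed plate, as did 30.3% of all genes. Ndufc2, the gene high in tanycyte-like cells, measured 534, 515 and 471 CPM when fed and 537 CPM when fasted.

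Neurons other than AgRP-like ones had a member median of -0.35, and 57 of 76 members lay below every fed plate, as did 30.3% of all genes, but 0 were called by edgeR or DESeq2 and 11 had an unadjusted p under 0.05. Of 12505 genes tested there, 0.112% were called. Cox6a2 had the smallest p in them (-1.03, adjusted p = 0.33), and the Pomc-led cluster, where it is highest, gave 39 of 43, 35 of 54 and 48 of 76 of these cells when fed and 9 of 21 when fasted. VLMC-like cells had 1 call among 68 members, Ndufa4, at 223, 164 and 237 CPM against 16.4 CPM. The fasted value is 1 UMI in 13 cells, with a ratio to the fed plates of 0.0787 (exact 95% counting interval 0.00197 to 0.450), and neither DESeq2 nor the unfiltered fit called it. Endothelial-like cells had 0 calls of 64 members by either tool and 6 members with an unadjusted p under 0.05, with a median of -0.44. Astrocyte-like cells had 0 of 68 by either tool, 2 with an unadjusted p under 0.05 and a median of -0.06. The share of all genes called was 1.04, 0.202 and 0.601% in these 3 classes. Without the filter on low counts the medians of all genes were below those of the members, at -1.05 and -0.82 in VLMC-like and -0.70 and -0.53 in endothelial-like cells, whereas as fitted all genes had -0.11 and -0.08.

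Over all kept cells, 0 of 81 members were called by edgeR or DESeq2, 15 had an unadjusted p under 0.05 and 67 lay below every fed plate, as did 28.2% of all genes. No gene of 18241 was called there (0%). Sums over all kept cells also depend on the mix of classes. Neurons were 49 of 270 cells on the fasted plate and 124 of 356, 114 of 322 and 106 of 331 on the fed plates. In UMIs of tested genes they gave 2706480 of 5064342, against 3057674 of 5506189, 3079452 of 4371978 and 3026420 of 4679830. The part of this mix was not tested. Over all neurons, 0 of 78 members were called (0.271% of all genes, 15 members with an unadjusted p under 0.05). The difference between the fasted minus fed change of neurons and that of other cells, whose make-up differed between the plates, was also tested. It was called for 0 of 81 members and 0% of 17504 genes by edgeR, for 0 members by DESeq2, and 1 member, Ndufa4l2, had an unadjusted p under 0.05.

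Several measures of the plate moved with the lower share. Neurons of the fasted plate were deeper, with a median of 58357 UMIs against 25155.5 to 30471.5 on the fed plates, and their member UMIs per cell were higher, not lower, with a median of 670 against 355.5 to 420. Member UMIs per spike-in UMI in neurons were 0.112 on the fasted plate, inside the fed range of 0.104 to 0.147. In tanycyte-like cells the lower share was present in cells under 8000 UMIs (88.4 against 116, 111 and 117 per 10000) and in deeper cells (81.9 against 114, 100.4 and 109). At a cut of 40000 UMIs, fed and fasted AgRP-like neurons shared no depth class with at least 10 cells a plate. Remaining neurons above the cut stood at 115 on the fasted plate (13 cells). Fed plate 3, the only fed plate with enough such cells, stood at 128 (11 cells). Transcript length also moved with the difference over all genes. In AgRP-like neurons the median of non-member genes was -0.24 for transcripts under 1000 bases, -0.14 for 1000 to 2000, -0.05 for 2000 to 4000 and 0.07 above 4000 bases. The members, whose median transcript length is 849.5 bases, had -0.31, -0.25 and -0.27 in the first 3 bins, the third with only 6 members. In tanycyte-like cells non-members had -0.39, -0.24, -0.08 and 0.14 and members -0.46, -0.40 and -0.22 (6 members). In the remaining neurons, non-members under 1000 bases had -0.15 and members -0.37. In endothelial-like cells under 1000 bases the order was the other way, with non-members at -0.41 and members at -0.36, as it was in VLMC-like cells for 1000 to 2000 bases (-0.52 and -0.32), while VLMC-like non-members under 1000 bases had -0.54 and members -0.71.

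**Figure D4:**
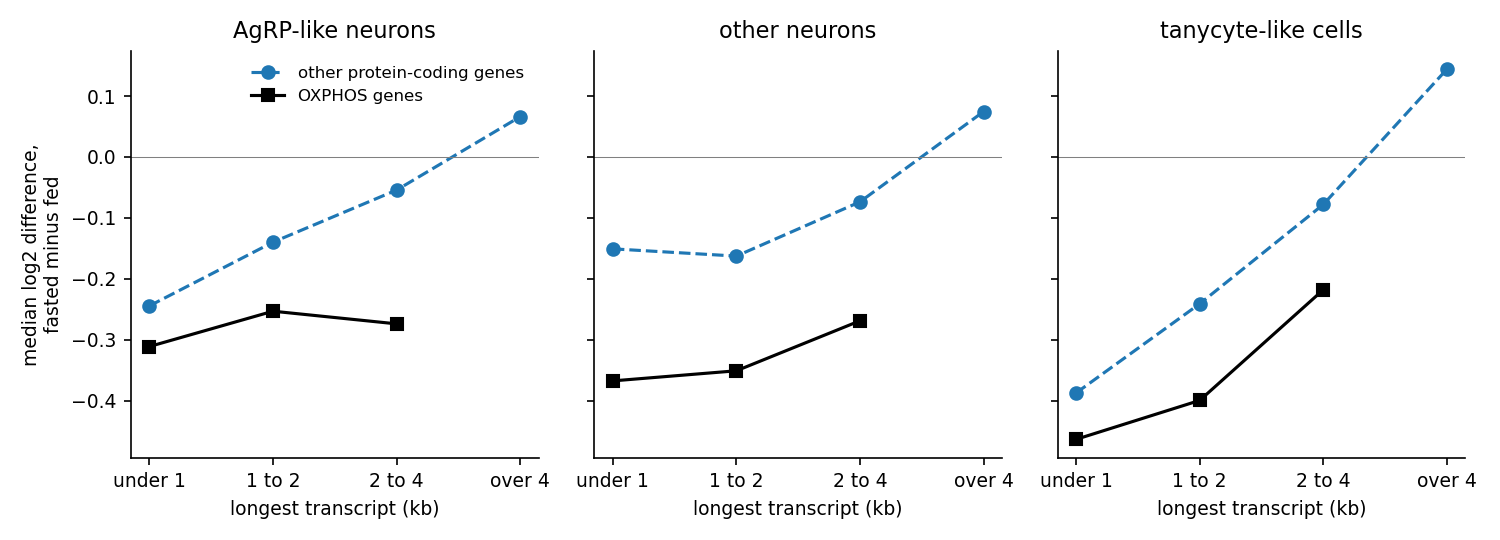
Median log2 difference, fasted minus fed, by the length of the longest transcript (bins in kilobases) for members and other genes in AgRP-like neurons, other neurons and tanycyte-like cells. Medians of other genes run from -0.24 under 1 kb to 0.07 over 4 kb in AgRP-like neurons, and the members lie below them in each bin drawn.

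Sex of the assigned cells moved with the plate as well. Its part in the result was not tested in neurons. There only 4.08% of the fasted cells had Xist alone and 2.04% Y-linked transcripts alone, and the others had both or neither. Within fed plates 2 and 3, tanycyte-like cells with Xist alone stood at 98.8 and 120 per 10000 and those with Y-linked transcripts alone at 104 and 111, with no common direction. Neurons with Xist alone stood at 140 and 116, from 21 and 13 cells. Those with Y-linked transcripts alone stood at 144 and 157, from 25 and 28 cells. On fed plate 3 all 13 neurons with Xist alone were neurons other than AgRP-like ones. Their 116 lay below the 121 of all fasted neurons but above the 114 of fasted neurons other than AgRP-like ones. VLMC-like cells of fed plate 3 stood at 99.0 with Xist alone and 98.4 with Y-linked transcripts alone. Over all kept cells the values were 117 and 106 with Xist alone against 127 and 135, but the mix of classes differed. Neurons were 21 of 91 and 13 of 90 of the cells with Xist alone. Of those with Y-linked transcripts alone, neurons were 25 of 90 and 28 of 103. When fasted and fed tanycyte-like cells with Xist alone were compared, the member median was -0.34. The mitochondrial share was also higher, at a median of 8.34% of UMIs on the fasted plate and 5.76 to 6.51% on the fed plates. The part of depth, transcript length and mitochondrial share in the lower level was not tested.

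Genes of the lists around the chain were also compared between the fasted and fed plates. Higd2a, a supercomplex factor among the 8 respiratory chain genes that the symbol rule leaves out, was lower in tanycyte-like cells at 67.2 CPM against 186, 193 and 189 when fed (-1.49, adjusted p = 0.00344) and in AgRP-like neurons at 125 CPM against 248, 219 and 184 (-0.80, adjusted p = 0.0344). Of all genes, 4.79% were called in AgRP-like neurons and 3.09% in tanycyte-like cells. Among 44 assembly factors in AgRP-like neurons, 1 was higher (Cox16, 0.80) and 3 were lower, among them Bcs1l (-1.25), which inserts the Rieske protein into complex III. Of 76 mitochondrial ribosomal proteins 2 were lower, Mrpl28 (-1.10) and Mrpl42 (-0.89), as was Vdac1 (-0.79), the main pore of the outer membrane, of 9 carriers. None of 16 tricarboxylic acid cycle genes and none of 14 biogenesis regulators were called there. In tanycyte-like cells Sdhaf4 (-1.88), an assembly factor of complex II, and Mrps25 (-1.91) were lower and Slc25a27 (1.51) was higher.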

How the data were processed

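Single cells were profiled with CEL-seq2 in 3 fed plates and 1 fasted plate. The authors deposited expected counts for each gene in each well, which are UMIs adjusted for collisions among 4096 possible ones, without filtering or normalization. Per the submitters' processing notes, Trim Galore and STAR were used with mm10. The UMI counter is not given in the sources used here.

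Counts were rounded. Wells with at least 1000 nuclear UMIs and under 30% mitochondrial UMIs were kept. Cells were clustered with scanpy 1.11.5 (2000 variable genes, 30 components, 10 neighbours, Leiden resolution 1.5) without members, mitochondrial, sex-linked marker or list genes, and named from fixed markers. The neuron threshold of 50 marker UMIs per 10000 was set after seeing the data. No doublet caller was run, since 1 cell was sorted per well, and every plate uses the same 384 well barcodes. UMIs were summed per plate and class (at least 10 cells) and tested with edgeR 4.0.16 (R 4.3.3, limma 3.58.1): filterByExpr, TMM, robust quasi-likelihood, Benjamini-Hochberg over all genes. Class comparisons carry plate as block because both sums come from the same plate. With 1 fasted plate, that plate is assumed to vary like the fed plates. CPM are TMM-scaled, plain CPM are not. Coordinates are GRCm38 (GENCODE M21), promoters RefSeq GRCm38.p6. Intervals are exact (Clopper-Pearson for shares, 95%) and, like the limit given beside a count of 0 cells (3 counts of the total), cover counting error only. The scripts were tested on simulated data. Of simulated log2 changes of 1, they recovered 61% in neurons against other cells. In fasted against fed AgRP-like and tanycyte-like cells they recovered 38% each, so a member not called may still differ.

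Named genes were the 10 called members with the largest difference each way, or the 3 with the smallest p, plus isoform pairs, complex II and the ATP synthase ring genes. Atp5e and the complex III genes in the comparison of neurons with other cells, and Ndufc2, Ndufa3, Ndufv3 and Higd2a on the fasted plate, were named after their values were seen. Members, lists and rules were chosen with earlier results of these data known. Alternatives included DESeq2 1.42.0, other scaling, filters, clustering and leaving out each plate.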

Additional observations from a re-analysis of the deposited data

How the results depend on the processing

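The call counts give members called either way. Leaving out each plate in turn moved them as follows: neurons against other cells 55 to 68, AgRP-like against other neurons 2 to 8, tanycyte-like 2 to 6, VLMC-like 2 to 5, endothelial-like 8 to 11, astrocyte-like 2 to 7 and pars tuberalis-like cells 0 to 1. For the fasted plate the ranges were 0 to 10 in AgRP-like neurons, 0 to 5 in other neurons, 0 to 7 in all neurons, 1 to 5 in tanycyte-like, 0 to 0 in endothelial-like and 1 to 1 in VLMC-like cells, 0 to 15 in all kept cells and 0 to 0 for the difference between neurons and other cells. The fed level ran from 143 to 154 in neurons and from 98.6 to 102 in other cells. Without the replicate block the calls were 54 in neurons (67 with it), 2 in AgRP-like neurons (6 with it), 4 in tanycyte-like cells (8 with it) and 0 in pars tuberalis-like cells (1 with it). No paired analysis was possible for fasted against fed because there is 1 fasted plate. DESeq2 called 3 members in AgRP-like against other neurons, 3 in pars tuberalis-like cells, and on the fasted plate 1 in AgRP-like neurons, 0 in tanycyte-like and 0 in VLMC-like cells. Without the low-count filter the fasted plate gave 1 call in AgRP-like neurons, 1 in all neurons, 1 in tanycyte-like cells, 0 in VLMC-like cells and 1 in all kept cells, and pars tuberalis-like cells gave 0. Pars tuberalis-like cells also gave 2 calls with DESeq2's size factors in edgeR, 0 with stricter wells and 2 at Leiden resolution 1. With Xist-only cells, tanycyte-like cells gave 0 calls on the fasted plate. Signs reversed, in differences that never passed the threshold, for Cox6a1 in neurons (-0.042 without fed plate 2, -0.0018 without fed plate 3, -0.037 without the replicate block, with -0.042 to 0.14 over the plates left out). In AgRP-like against other neurons they reversed without fed plate 2 for Sdhb (0.021, with -0.17 to 0.021 over the plates left out) and Ndufa4 (-0.00031, with -0.00031 to 0.10). The causes were not tested. Over the named genes, 950 values kept direction and side of the threshold, 126 lost the call, 12 gained it and 5 reversed. Of the named calls, 21 of 24 in neurons and 2 of 6 in AgRP-like neurons held in every setting, and 0 of 3, 0 of 2 and 0 of 1 in the fasted AgRP-like, tanycyte-like and VLMC-like cells. The member median stayed between 0.63 and 0.71 in neurons against other cells. On the fasted plate it stayed between -0.33 and -0.23 in AgRP-like neurons, -0.40 and -0.24 in other neurons, -0.47 and -0.34 in tanycyte-like, -0.53 and -0.32 in endothelial-like and -0.82 and -0.58 in VLMC-like cells. Minus the median of all genes it ran from -0.43 to 0.17 in endothelial-like and from -0.61 to 0.22 in VLMC-like cells, above 0 only without the low-count filter. Leaving out the Lcn2-led cluster, an alternative chosen after seeing the data, gave 67 calls in neurons and 14 in endothelial-like cells. Leaving out the fasted plate was not run for any fasting result, nor each plate in turn for astrocyte-like cells, nor Xist-only cells in neurons, endothelial-like and VLMC-like cells, since too few sums remained. Depth limits the small classes: in VLMC-like cells of the fasted plate, 2 tested members (Ndufb4 and Ndufs3) had 0 UMIs, and the member median of -0.67 became -0.65 with them at a floor of 3 UMIs.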
